A study of Mus musculus with 12 samples.

Results

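The 10 genes described here are widely used to follow hepatic stellate cells and liver fibrosis. Lrat, Reln and Pdgfrb mark stellate cells, Acta2 their activation, Tgfb1 the signal behind it, Col1a1, Col1a2, Col3a1 and Dcn the matrix, and Timp1 the inhibition of matrix breakdown. They were chosen by name, and all 10 are present among the 40840 genes listed for each library. RNA came from the immune cell fraction of perfused and digested livers, enriched on a Percoll step and not sorted, which the labels call hepatic macrophages. The mice were male and 8 to 10 weeks old at the start of 12 weeks on a normal chow diet (NCD) or a high-fat diet (HFD). WT mice were of strain C57BL/6, and Casp11-/- mice, labelled as caspase-11 knock-out, were of strain B6.129S4(D2)-Casp4tm1Yuan/J. Either genotype was fed either diet, which gives 4 groups of 3 mice with 1 library per mouse, named WT-NCD, WT-HFD and, for the knock-out, Casp11-/- NCD and Casp11-/- HFD.

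Stellate cells lie between hepatocytes and the sinusoidal endothelium and store vitamin A as retinyl esters. After injury, TGF-beta and PDGF signals turn them into contractile cells that make smooth muscle actin, secrete fibrillar collagens and release inhibitors of the enzymes that degrade matrix. Most of the 10 genes are genes of mesenchymal cells and not of macrophages, whereas Tgfb1 is also made in quantity by leukocytes.

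Values are TPM, a measure of the share of transcripts that is already corrected for gene length. The lowest value in every file is 1.01 TPM, called the floor here, and a gene at the floor cannot be told from one that is not expressed. WT-NCD replicate 3 stood apart from the other 11 libraries, with 39677 genes above the floor against 12940 to 18775, and with a highest single value of 1635 TPM against 153305 to 430602. Results that rest on it are therefore given with and without it. Protein-coding genes made up 14.6% to 42.4% of the summed values of a library, so changes are read beside the median change of all genes. Casp4, the gene for caspase-11, ranged from 5.60 to 15.6 TPM in the WT libraries and from 2.56 to 15.2 TPM in those labelled Casp11-/-, so that the genotypes overlapped.

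Tgfb1 was the most abundant of the 10 genes, with a mean of 108 TPM over the 11 libraries, above 98.2% of the 21402 genes that were over the floor in any of them. Acta2 and Dcn had means of 13.7 and 13.6 TPM, above 81.6% and 81.5% of these genes. Lrat, Reln and Col3a1 had means of 2.98, 2.86 and 2.02 TPM. Col1a2 and Col1a1 averaged 1.39 and 1.25 TPM, and Timp1 and Pdgfrb both averaged 1.01 TPM. Dcn, Reln, Acta2 and Tgfb1 were above the floor in all 11 libraries, Col3a1 in 10, Lrat in 9, Col1a2 in 5, Col1a1 in 4, Timp1 in 1 and Pdgfrb in 0.

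**Figure D1:**
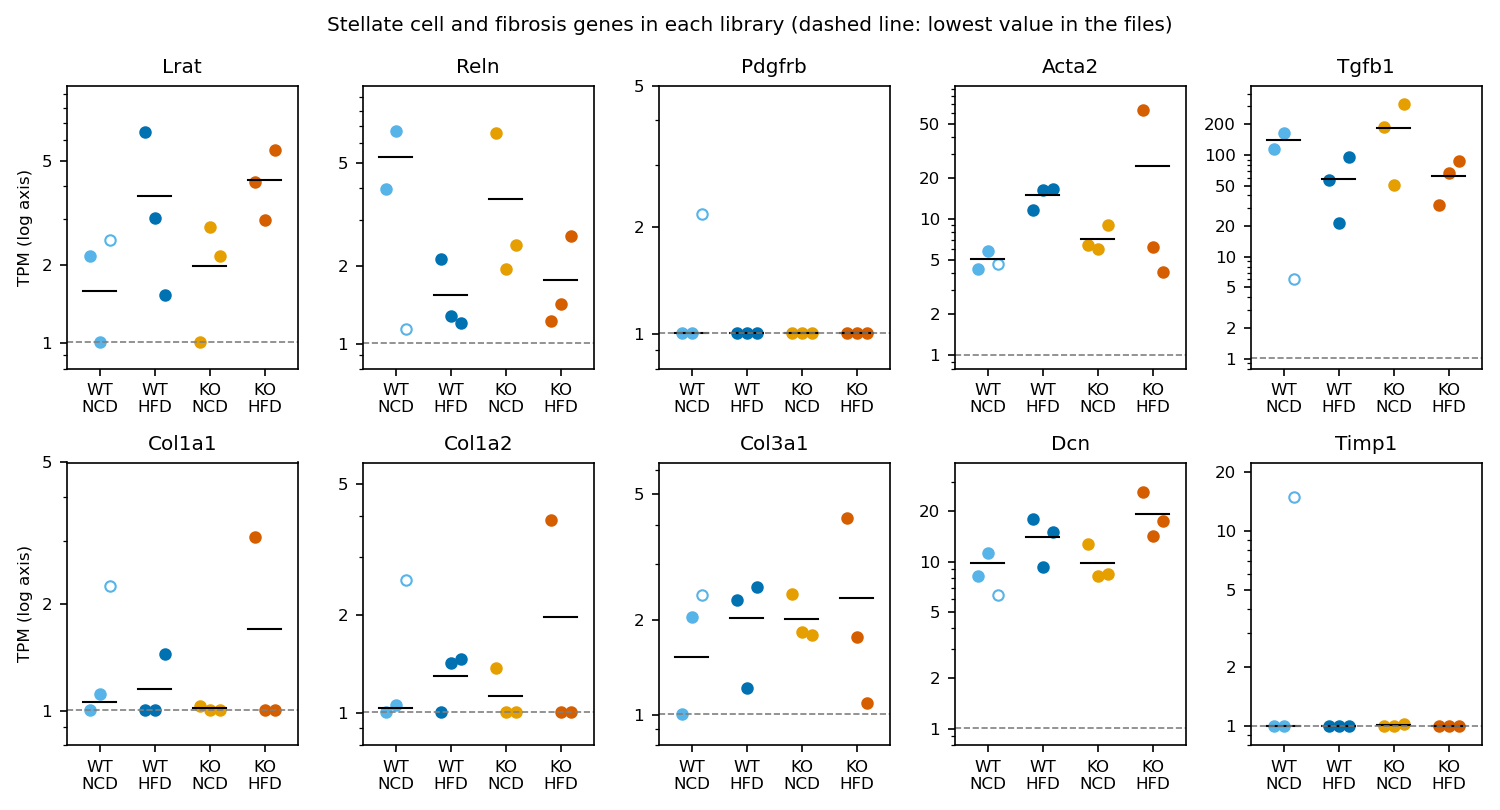
TPM of the 10 genes (vertical log axis) in each library, by group (KO stands for Casp11-/-), with an open circle for WT-NCD replicate 3, black bars for the mean of the filled circles and a dashed line at the floor of 1.01 TPM. Acta2 reaches 63.4 TPM in Casp11-/- HFD replicate 1, while Timp1 and Pdgfrb stand clear of the floor in WT-NCD replicate 3 alone, at 15.0 and 2.18 TPM.

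The stellate cell label was checked against 22 genes of stellate identity. Of these, 6 were above the floor in all 11 libraries (Reln, Ecm1, Rgs5, Vipr1, Hgf and Dcn), or 27.3%, against 24.8% of all genes. The list had 5 genes at the floor in all 11 libraries, or 22.7%, against 47.6% of all genes. These were Lhx2, a transcription factor of stellate cells, the PDGF receptors Pdgfra and Pdgfrb, Gfap, a filament protein, and Angptl6. Cygb, a globin of stellate cells, read 5.25 TPM in WT-NCD replicate 3 and at most 1.01 TPM elsewhere, and Hand2, a stellate transcription factor, read 5.95 TPM there and at most 1.67 TPM elsewhere. Several defining genes of stellate cells were therefore absent or at the limit of measurement, and the set is treated as a list of genes and not as a cell type. The summed level of 11 stellate cell markers was 30.3 to 67.9 TPM in the 11 libraries, against 154 to 1486 TPM for 7 markers of sinusoidal endothelium and 5711 to 21328 TPM for 5 markers of hepatocytes. Only 4 to 8 of the 11 stellate cell markers were above the floor in a library, and the sum counts each of the others at 1.01 TPM. In bulk samples fewer cells of a type and less RNA per cell cannot be told apart.

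The design asks whether the diet changed these genes, whether genotype did, and whether genotype altered the effect of the diet. Of the 10 genes, 8 exceeded the floor in 3 or more libraries and were tested, and Timp1 and Pdgfrb were not. With all 12 libraries, 0 of the 8 passed an adjusted p of 0.05 (limma, Benjamini-Hochberg over 19498 genes) in any comparison. Over all genes, the share called was 0.113% for HFD against NCD in WT mice, 0.0% for the same comparison in Casp11-/- mice, 0.0% for genotype on NCD, 0.0% for genotype on HFD, 0.0% for the interaction and 0.554% for the diet averaged over both genotypes. At an unadjusted p under 0.05, 1 member was counted in the averaged comparison, Dcn, and 0 in each of the other 5. This count depended on the scale: with the top 1% of genes removed and the rest rescaled, 6 of 7 members tested in 12 libraries had an averaged p under 0.05, all higher on HFD, as did 1943 of 19089 genes, although 0 members passed the adjustment. With protein-coding genes rescaled and WT-NCD replicate 3 left out, 6 of 8 members did, all higher, as did 1984 of 12366 genes.

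Without WT-NCD replicate 3, 2 of the 8 were called in the averaged diet comparison, Reln and Tgfb1, both lower on HFD. The share of all 17950 genes called was 18.3% there, with 17.3% lower and 1.07% higher, against which the 2 of 8 members called lower are to be read. The other comparisons called 0 of the 8, against 2.18% of genes for diet in WT mice, 1.1% for diet in Casp11-/- mice, 0.0557% for genotype on NCD, 0.0% for genotype on HFD and 0.00557% for the interaction. The median log2 fold change of the 8 was 0.23 in the averaged comparison and that of all genes was -0.39, and 6 of the 8 lay above the latter.

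Which members were called depended on the scale. After the protein-coding genes alone were rescaled to a common total, again without WT-NCD replicate 3, the median of all genes moved to -0.05, and Reln and Tgfb1 no longer passed (adjusted p = 0.15 and 0.16, limma). Dcn and Lrat were then called higher on HFD in the averaged comparison, where 921 of 12366 genes (7.45%) were called higher and 773 lower. Dcn was also called higher in Casp11-/- mice, where 2.68% of genes were. Each of these 4 genes kept its sign on both scales, with log2 fold changes of -0.98 and -0.50 for Reln, -1.40 and -0.74 for Tgfb1, 0.68 and 1.29 for Dcn and 0.79 and 1.24 for Lrat.

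**Figure D2:**
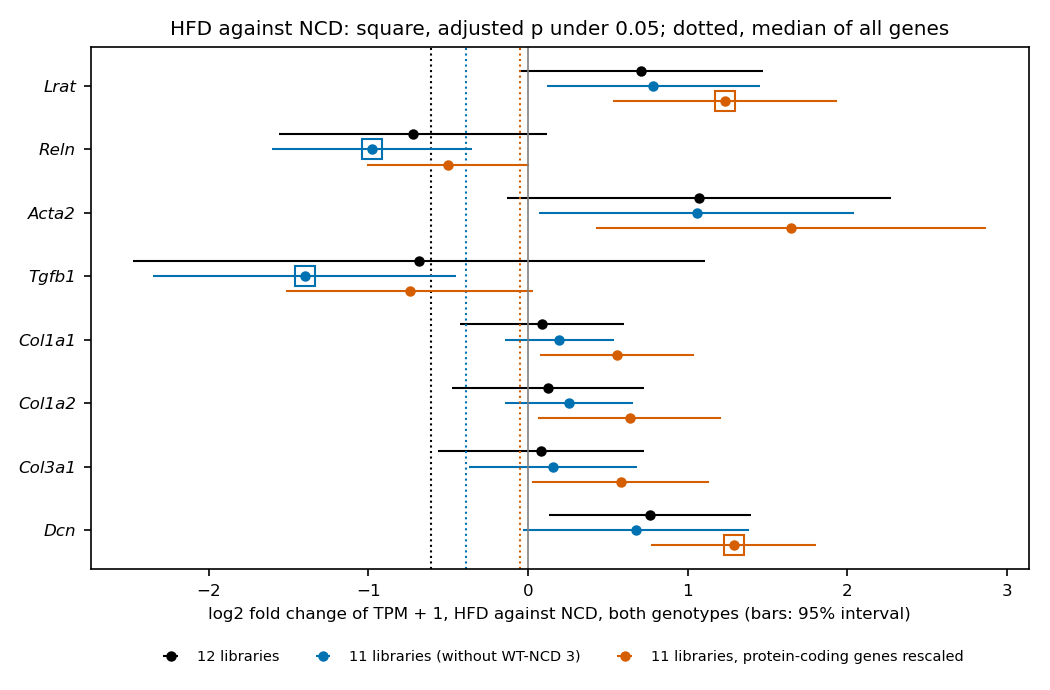
Log2 fold change of TPM + 1 (horizontal axis), HFD against NCD averaged over both genotypes, for the 8 tested genes with 95% intervals, in 12 libraries, in 11 libraries and in 11 libraries with protein-coding genes rescaled. Squares mark an adjusted p under 0.05 and dotted lines the median of all genes, at -0.61, -0.39 and -0.05, and Lrat, Acta2 and Dcn lie to the right of every median line while Tgfb1 lies to the left of each.

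Lrat (chromosome 3, 82892579 to 82903973, minus strand, all places from GENCODE vM21 on GRCm38) encodes the enzyme that esterifies retinol for storage. It was 2.16, 1.01 and 2.49 TPM in WT-NCD, 6.47, 3.01 and 1.53 in WT-HFD, 1.01, 2.79 and 2.16 TPM in Casp11-/- NCD, and 4.16, 2.97 and 5.52 TPM in Casp11-/- HFD. The 3 Casp11-/- HFD values lay above the 3 Casp11-/- NCD values, and the WT groups overlapped. Here and below, such a separation of groups describes single genes. The share of all genes that separate in the same way was not counted. Averaged over both genotypes, HFD differed from NCD by a log2 fold change of 0.71 (SE 0.35, adjusted p = 0.33, limma). Without WT-NCD replicate 3 it was 0.79 (SE 0.32, adjusted p = 0.084, limma), and with protein-coding genes rescaled it was 1.24 (SE 0.32, adjusted p = 0.028, limma).

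Reln (chromosome 5, 21884454 to 22344702, minus strand) encodes reelin, a secreted glycoprotein that stellate cells make in the liver. It was 3.97, 6.64 and 1.14 TPM in WT-NCD, 2.12, 1.28 and 1.20 in WT-HFD, 6.57, 1.94 and 2.40 TPM in Casp11-/- NCD, and 1.23, 1.43 and 2.62 TPM in Casp11-/- HFD. With WT-NCD replicate 3 left out, both WT-NCD values exceeded the 3 WT-HFD values, and the Casp11-/- groups overlapped. The averaged log2 fold change was -0.72 (SE 0.38, adjusted p = 0.36, limma) in 12 libraries and -0.98 (SE 0.30, adjusted p = 0.033, limma) in 11. Relative to the median of all genes these values were -0.12 and -0.58. The estimates for Reln and Lrat thus had opposite signs, and over the 11 libraries the 2 genes correlated at r = -0.554 (rho = -0.387). These libraries come from the same kind of preparation and differ in their levels of cell type markers. The genes most like Reln were H2bu2 (r = 0.956), Srpr (r = 0.946) and H4f16 (r = 0.941). Reln also correlated with the summed B cell markers at r = 0.822, the T cell markers at r = 0.835 and the Kupffer cell markers at r = -0.703. The part of these cell types in the values of Reln was not tested.

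Pdgfrb, the PDGF receptor that stellate cells and pericytes carry, was at the floor in 11 of 12 libraries and read 2.18 TPM in WT-NCD replicate 3. Pdgfb, the gene for one of its ligands, was 1.59 to 18.4 TPM in the 11 libraries, with its top value in Casp11-/- NCD replicate 3.

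The genes most like Lrat over the 11 libraries, of 7547 candidates, were Ugt2b34 (r = 0.93), a glucuronosyltransferase, Rgs5 (r = 0.926) and Bche (r = 0.917), butyrylcholinesterase. Rgs5, a regulator of G protein signalling known from pericytes and stellate cells, was 4.97, 2.59 and 2.93 TPM in WT-NCD, 16.3, 6.67 and 7.07 in WT-HFD, 1.41, 7.57 and 4.88 TPM in Casp11-/- NCD, and 12.6, 9.54 and 15.0 TPM in Casp11-/- HFD. In each genotype every HFD value lay above every NCD value. Without WT-NCD replicate 3, Rgs5 rose by 1.28 (SE 0.39, adjusted p = 0.031, limma) on the log2 scale in the averaged diet comparison, and its adjusted p was 0.19 with all 12 libraries.

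Colec10, a collectin of stellate cells, followed Lrat at r = 0.931 and Rgs5 at r = 0.968. It ran from 2.94 to 8.30 TPM on HFD and from 1.01 to 3.87 TPM on NCD in the 11 libraries, and rose by 1.15 (SE 0.35, adjusted p = 0.029, limma) in the averaged comparison there. Nes, the gene for the filament protein nestin, rose by 0.59 (adjusted p = 0.042, limma). Its values lay near the floor, at 1.01 to 4.61 TPM on HFD (median 1.87) and 1.01 to 1.20 TPM on NCD (median 1.01). Of the 22 stellate identity genes, 11 were tested without WT-NCD replicate 3, of which 3 were called higher (Rgs5, Colec10 and Nes) and 1 lower (Reln), beside 1.07% of all genes higher and 17.3% lower. With 12 libraries, 12 were tested and 0 called, and 4 had an unadjusted p under 0.05, all higher, as had 326 of 19498 genes. The median log2 fold change of the list was 0.59 in 11 libraries and 0.41 in 12, against -0.39 and -0.61 for all genes.

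**Figure D3:**
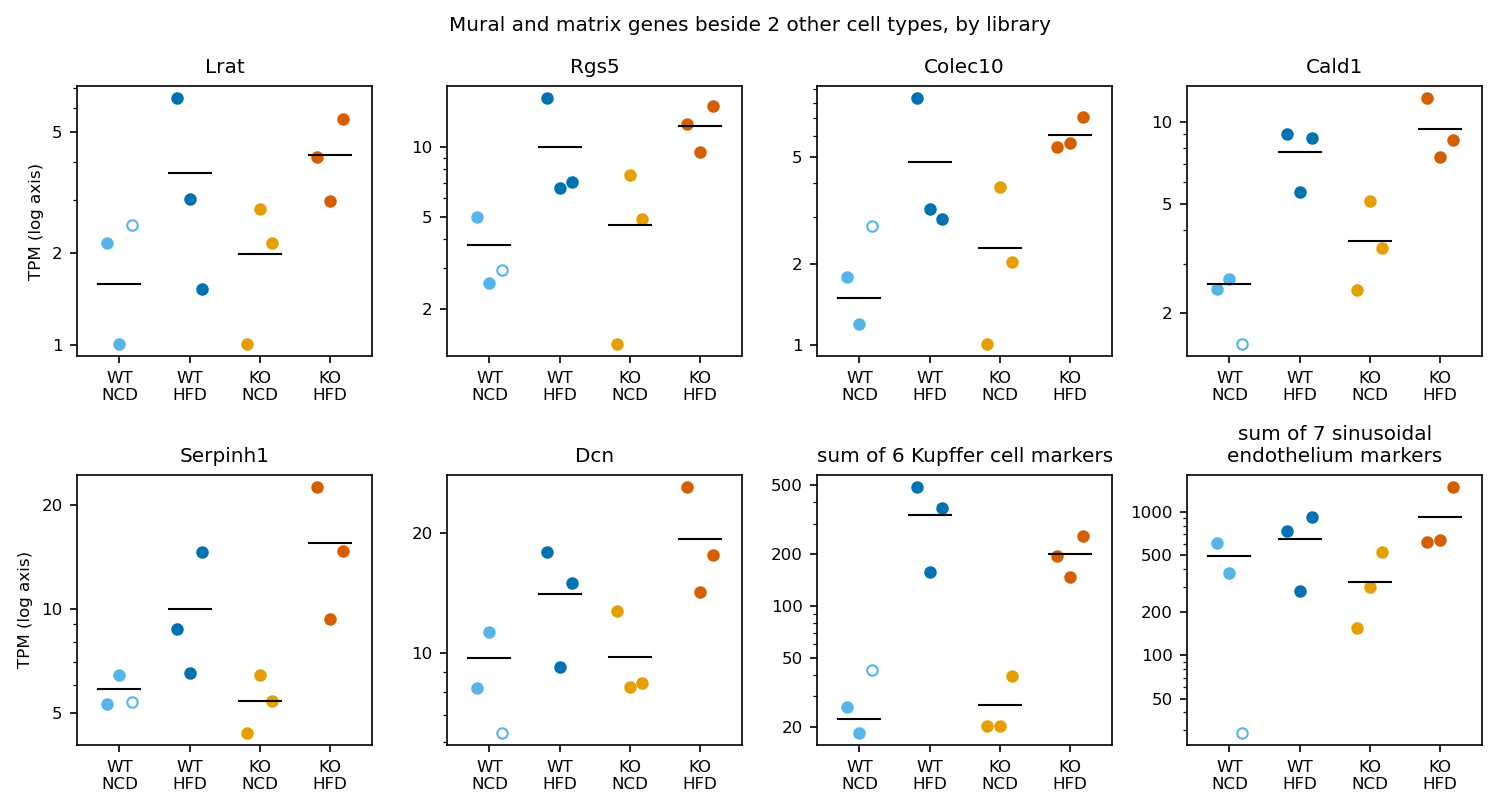
TPM (vertical log axes, each with its own range) of 6 mural and matrix genes and the summed TPM of 2 marker lists in each library, by group (KO stands for Casp11-/-), with an open circle for WT-NCD replicate 3 and black bars for the mean of the filled circles. Among the filled circles, Cald1, Serpinh1 and the Kupffer cell sum show every HFD value above every NCD value, while Lrat, Rgs5, Colec10 and Dcn overlap between the diets.

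Markers of other cell types moved with the diet in the same 11 libraries, in which 1.07% of all genes were called higher and 17.3% lower. Of 7 markers of sinusoidal endothelium, 4 were called higher on HFD, and their sum was 281 to 1486 TPM on HFD and 154 to 604 TPM on NCD. All 6 Kupffer cell markers were called higher, with sums of 148 to 490 TPM on HFD and 18.4 to 39.1 TPM on NCD. All 4 B cell markers and 3 of 4 T cell markers were called lower, with B cell sums of 117 to 253 TPM on HFD and 363 to 1378 TPM on NCD. Lrat correlated with the endothelial sum at r = 0.569, with the Kupffer cell sum at r = 0.678 and with the B cell sum at r = -0.664. For the same sums, Rgs5 had r = 0.736, 0.789 and -0.774, and Colec10 had r = 0.63, 0.783 and -0.809. The part of these cell types in the values of Lrat, Rgs5 and Colec10 was not tested.

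Acta2 (chromosome 19, 34241090 to 34255590, minus strand) encodes alpha smooth muscle actin, the usual marker of activated stellate cells. WT-NCD libraries read 4.33, 5.83 and 4.70 TPM, and WT-HFD libraries 11.7, 16.3 and 16.8 TPM, with means of 4.95 ± 0.78 and 15.0 ± 2.79 TPM (SD, n = 3 each), and these groups did not overlap. It was 6.44, 6.06 and 9.01 TPM in Casp11-/- NCD and 63.4, 6.24 and 4.13 TPM in Casp11-/- HFD. The value of 63.4 TPM in Casp11-/- HFD replicate 1 exceeded every other library, while the other 2 Casp11-/- HFD libraries lay among or below the NCD values.

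The log2 fold change of Acta2 on HFD was 1.42 (SE 0.77, adjusted p = 0.51, limma) in WT mice and 0.73 (SE 0.77, adjusted p = 0.72, limma) in Casp11-/- mice. The difference between these was -0.69 (SE 1.09, adjusted p = 0.81, limma). In an alternative added after the values were seen, without WT-NCD replicate 3 and Casp11-/- HFD replicate 1, the WT value was 1.39 (adjusted p = 0.25, limma) and the Casp11-/- value was -0.41 (adjusted p = 0.69, limma). In the same alternative Casp11-/- differed from WT on HFD by -1.37 (unadjusted p = 0.019, adjusted p = 1, limma), against -0.24 with all 12 libraries. The direction in Casp11-/- mice therefore rested on 1 library.

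The genes most like Acta2 over the 11 libraries were genes of heart muscle. Actc1, cardiac alpha actin, correlated with it at r = 0.992, Tnnt2, cardiac troponin T, at r = 0.99 and Myl2, a ventricular myosin light chain, at r = 0.989. Actc1 was 6.86, 6.76 and 9.11 TPM in WT-NCD, 17.7, 26.2 and 25.4 in WT-HFD, 9.90, 8.51 and 15.9 TPM in Casp11-/- NCD, and 97.2, 8.28 and 5.23 TPM in Casp11-/- HFD. It was high in the same libraries as Acta2. The ratio of Acta2 to Actc1 stayed between 0.567 and 0.863, a span of 1.52-fold, while Acta2 itself spanned 15.4-fold. The ratio of Acta2 to Dcn spanned 10.4-fold and that of Acta2 to Lrat 20.4-fold.

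The likeness was not limited to actins. Lists of 13 heart muscle genes and 6 pigment cell genes were written after the values were seen and are given as a description. All 13 and all 6 had their highest value of the 11 libraries in Casp11-/- HFD replicate 1. So had Acta2 itself and 22.3% of all 21402 genes. Over the 12 heart muscle genes that exceeded the floor in 6 or more libraries, the correlation with Acta2 ranged from 0.932 to 0.992, and over 4 such pigment cell genes from 0.959 to 0.979. Mb, myoglobin, read 76.3 TPM and Tyrp1, an enzyme of melanin synthesis, 27.6 TPM in that library, against 11-library medians of 9.52 and 3.24 TPM. The part of other tissues in the Acta2 values was not tested.

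**Figure D4:**
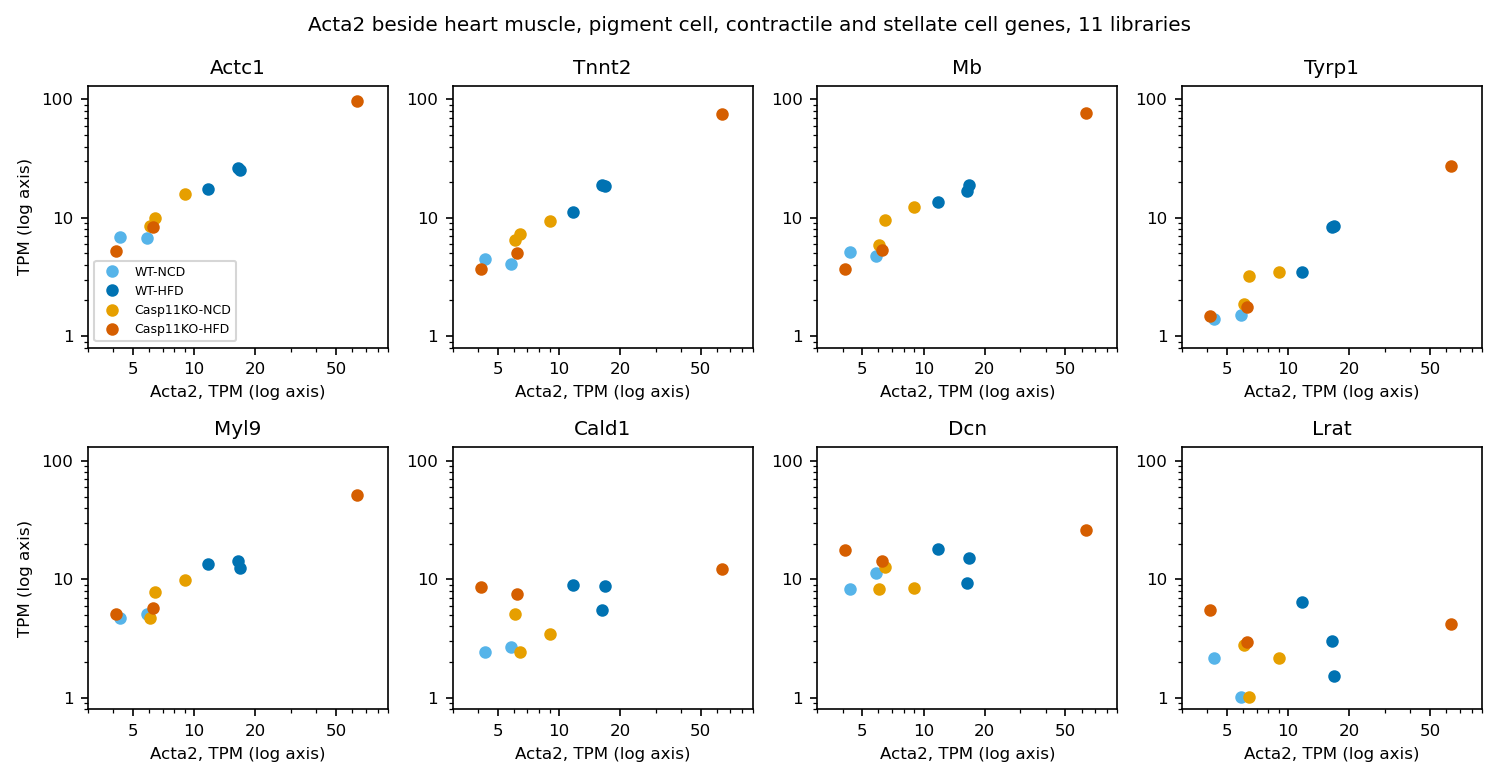
TPM of 8 genes (vertical log axes) against TPM of Acta2 (horizontal log axes) in the 11 libraries other than WT-NCD replicate 3, coloured by group. Actc1, Tnnt2, Mb, Tyrp1 and Myl9 rise along with Acta2 up to Casp11-/- HFD replicate 1 at 63.4 TPM. Cald1, Dcn and Lrat follow Acta2 less closely, although Cald1 and Dcn are also highest in that library, at 12.2 and 26.1 TPM.

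Of the 11 contractile genes, 10 (90.9%) had their highest value of the 11 libraries in Casp11-/- HFD replicate 1, against 22.3% of all 21402 genes. Myl9, a smooth muscle myosin light chain, was 51.8 TPM there and 4.69 to 14.3 TPM in the other 10 libraries. Cnn1, calponin, was 9.02 TPM there and at most 3.001 TPM in the other 10, and Myh11, smooth muscle myosin, was 7.48 TPM there and at most 2.25 TPM. Des, the gene for desmin and a member of the stellate identity list, was 9.31 TPM there and at most 2.14 TPM.

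Cald1, caldesmon, did not follow that library alone. It was 2.44, 2.66 and 1.53 TPM in WT-NCD, 9.001, 5.54 and 8.73 in WT-HFD, 2.41, 5.10 and 3.45 TPM in Casp11-/- NCD, and 12.2, 7.44 and 8.57 TPM in Casp11-/- HFD, so that every HFD value lay above every NCD value. In the averaged comparison Cald1 rose by 1.23 (SE 0.35, adjusted p = 0.023, limma) without WT-NCD replicate 3, and by 1.31 (adjusted p = 0.091, limma) with all 12 libraries, which did not pass. It was the only 1 of 9 contractile genes tested that passed in 11 libraries, where 1.07% of all genes were called higher, and 0 of 9 passed in 12. Cald1 correlated with the endothelial sum at r = 0.611, the Kupffer cell sum at r = 0.879 and the B cell sum at r = -0.875. The part of these cell types in its values was not tested.

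Col1a1 (chromosome 11, 94936224 to 94953042, plus strand) and Col1a2 (chromosome 6, 4504814 to 4541544, plus strand) encode the chains of type I collagen, the main fibrillar collagen of scar. Col1a1 was 1.01, 1.11 and 2.24 TPM in WT-NCD, 1.01, 1.01 and 1.44 in WT-HFD, 1.03, 1.01 and 1.01 TPM in Casp11-/- NCD, and 3.09, 1.01 and 1.01 TPM in Casp11-/- HFD. Col1a2 was 1.01, 1.06 and 2.55 TPM, 1.01, 1.43 and 1.46 TPM, 1.38, 1.01 and 1.01 TPM, and 3.88, 1.01 and 1.01 TPM in the same order. Both genes were highest in Casp11-/- HFD replicate 1 and second highest in WT-NCD replicate 3, and most other values were at the floor. Col3a1 (chromosome 1, 45311538 to 45349706, plus strand), the gene for type III collagen, was 1.01, 2.04 and 2.39 TPM, 2.31, 1.22 and 2.53 TPM, 2.41, 1.83 and 1.79 TPM, and 4.21, 1.76 and 1.08 TPM, and all 4 groups overlapped. The genes most like Col3a1 were Slirp (r = 0.843), Dbi (r = 0.823) and Fabp3 (r = 0.812).

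The averaged log2 fold changes of the 3 collagen genes were 0.09 (Col1a1, 95% interval -0.42 to 0.60), 0.12 (Col1a2, -0.48 to 0.72) and 0.08 (Col3a1, -0.57 to 0.72) with adjusted p-values of 0.79, 0.75 and 0.85 (limma). Nearly all values were at or close to the floor, and the estimates moved with the scale. With protein-coding genes rescaled and WT-NCD replicate 3 left out they were 0.56, 0.64 and 0.58 (adjusted p = 0.10, 0.11 and 0.13, limma), and the highest values over the alternatives were 0.68, 0.75 and 0.73. None of the 3 genes passed in the averaged comparison under any alternative tried, with smallest adjusted p-values of 0.077, 0.087 and 0.12 (limma).

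Dcn (chromosome 10, 97479609 to 97518143, plus strand) encodes decorin, a small proteoglycan that binds collagen fibrils. It was 8.20, 11.3 and 6.32 TPM in WT-NCD, 17.99, 9.24 and 15.0 in WT-HFD, 12.8, 8.23 and 8.44 TPM in Casp11-/- NCD, and 26.1, 14.3 and 17.6 TPM in Casp11-/- HFD. All 3 Casp11-/- HFD values exceeded all 3 Casp11-/- NCD values, with means of 19.3 ± 6.10 and 9.81 ± 2.56 TPM (SD, n = 3 each), and in WT mice the groups overlapped. The 26.1 TPM came from Casp11-/- HFD replicate 1, which held the highest value of 5 of 9 members (55.6%), against 22.3% of all genes. Leaving out 1 library at a time, the log2 fold change of Dcn in Casp11-/- mice ran from 0.67 to 1.08. The averaged log2 fold change of 0.77 (SE 0.29, unadjusted p = 0.022, adjusted p = 0.23, limma) had the smallest p of the 8 tested genes in 12 libraries. Without WT-NCD replicate 3 it was 0.68 (SE 0.34, adjusted p = 0.15, limma). With protein-coding genes rescaled it was 1.29 (SE 0.24, adjusted p = 0.0072, limma), and in Casp11-/- mice alone 1.43 (SE 0.32, adjusted p = 0.033, limma). No rescaled fit left out Casp11-/- HFD replicate 1.

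Serpinh1, the collagen chaperone HSP47, was the gene most like Dcn (r = 0.832), and Pls3 (r = 0.775) and Acy3 (r = 0.763) came next. Serpinh1 was 5.29, 6.41 and 5.37 TPM in WT-NCD, 8.72, 6.50 and 14.6 in WT-HFD, 4.37, 6.43 and 5.39 TPM in Casp11-/- NCD, and 22.5, 9.33 and 14.7 TPM in Casp11-/- HFD, and the lowest HFD value (6.50 TPM) was just above the highest NCD value (6.43 TPM). Its averaged log2 fold change was 0.96 (SE 0.35, adjusted p = 0.059, limma) in 11 libraries, which did not pass.

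In the wider list of 30 matrix genes, 23 were tested in each set of libraries, with 0 called in 12 libraries and 1 higher in 11, Bgn, beside 1.07% of all genes. Bgn, the gene for biglycan, was 37.3, 21.9 and 5.35 TPM in WT-NCD, 60.8, 30.1 and 75.1 in WT-HFD, 10.6, 27.3 and 39.9 TPM in Casp11-/- NCD, and 73.4, 45.0 and 83.7 TPM in Casp11-/- HFD, a log2 fold change of 1.15 (SE 0.39, adjusted p = 0.043, limma) in 11 libraries. Casp11-/- HFD values lay above all Casp11-/- NCD values, and the WT groups overlapped. The basement membrane collagens Col4a1 and Col4a2, which endothelial cells also make, had log2 fold changes of 0.94 and 0.90 (adjusted p = 0.076 and 0.094, limma). Bgn, Col4a1 and Col4a2 correlated with the endothelial sum at r = 0.925, 0.941 and 0.939. The part of endothelial content in their values was not tested. Fn1, the most abundant gene of the list, had a lower median on HFD in 11 libraries, 163 TPM against 194 TPM on NCD. Its ranges overlapped, at 96.3 to 260 TPM on HFD and 176 to 517 TPM on NCD. The median of the list was 0.25 in 11 libraries against -0.39 for all genes. In Casp11-/- HFD replicate 1, 13 of 25 matrix genes (52%) had their highest value, against 22.3% of all genes.

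Tgfb1 (chromosome 7, 25687002 to 25705077, plus strand) encodes the cytokine TGF-beta 1. It was 115, 163 and 6.06 TPM in WT-NCD, 56.4, 21.3 and 95.3 in WT-HFD, 188, 50.8 and 317 TPM in Casp11-/- NCD, and 32.2, 67.1 and 86.7 TPM in Casp11-/- HFD. WT-NCD replicate 3 was the lowest library, and without it both WT-NCD values lay above the 3 WT-HFD values. In Casp11-/- mice the groups overlapped. The averaged log2 fold change was -0.68 (SE 0.81, adjusted p = 0.58, limma) in 12 libraries and -1.40 (SE 0.46, adjusted p = 0.040, limma) in 11, or -0.08 and -1.01 relative to the median of all genes. With protein-coding genes rescaled it was -0.74 (adjusted p = 0.16, limma).

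The genes most like Tgfb1 were Dync1h1 (r = 0.994), a dynein heavy chain, Tbc1d22a (r = 0.993) and Gpkow (r = 0.993), none of which belongs to the fibrosis pathways listed here. Tgfb1 also correlated with the immune marker Ptprc at r = 0.872, the B cell sum at r = 0.87 and the T cell sum at r = 0.684. The part of cell content in its values was not tested. The top Tgfb1 library, Casp11-/- NCD replicate 3, also held the highest value for 45.1% of all 21402 genes and for 11 of 21 (52.4%) genes of TGF-beta and PDGF signalling.

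Of 24 genes of TGF-beta and PDGF signalling, 20 were tested in 12 libraries with 0 called, and 18 in 11 libraries with 0 called higher and 3 lower (17.3% of all genes were lower), Tgfb1, Smad7 and Smad3. Smad7, the inhibitory SMAD that TGF-beta induces, was 26.8, 32.5 and 2.996 TPM in WT-NCD, 9.69, 4.93 and 16.4 in WT-HFD, 20.6, 16.1 and 29.7 TPM in Casp11-/- NCD, and 6.87, 7.28 and 19.7 TPM in Casp11-/- HFD, a log2 fold change of -1.29 (SE 0.38, adjusted p = 0.027, limma) in 11 libraries. Smad3, which carries the signal to the nucleus, fell by 1.10 (SE 0.38, adjusted p = 0.045, limma). Tgfbr3, a co-receptor, had a value of 0.95 (adjusted p = 0.069, limma) and did not pass. With protein-coding genes rescaled, 3 of the 18 were called higher and 0 lower, while 7.45% of all genes were called higher and the median of all genes moved from -0.39 to -0.05.

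Timp1 (chromosome X, 20870166 to 20874735, plus strand) encodes a secreted inhibitor of matrix metalloproteinases. It was 15.0 TPM in WT-NCD replicate 3, 1.02 TPM in Casp11-/- NCD replicate 3 and at the floor in the other 10 libraries, so it did not pass the filter. In a fit with no filter its averaged log2 fold change was -0.50 (adjusted p = 0.45, limma). Timp3, an inhibitor bound to the matrix, was present in all 11 libraries at 4.64 to 81.5 TPM. Of 16 genes of matrix turnover, 10 were tested in 11 libraries and 1 was called higher, against 1.07% of all genes. It was Adamts1, a secreted protease that cleaves proteoglycans. Adamts1 was 4.36, 5.67 and 2.72 TPM in WT-NCD, 4.82, 3.62 and 8.96 in WT-HFD, 1.03, 2.85 and 3.0001 TPM in Casp11-/- NCD, and 6.97, 13.7 and 26.1 TPM in Casp11-/- HFD, a log2 fold change of 1.16 (SE 0.39, adjusted p = 0.042, limma) in the averaged comparison. The WT groups overlapped, and the Casp11-/- groups did not. With 12 libraries 0 of 11 tested genes of the list were called. Plaur and Mmp9, also of the list, had lower medians on HFD in 11 libraries, 14.4 and 8.16 TPM against 35.5 and 19.7 TPM on NCD. Those of Timp3 and Mmp14 were higher on HFD, and the ranges of all of these genes overlapped between the diets.

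Genotype made no difference that passed for any of the 8 tested genes on either diet. With 12 libraries the values for Casp11-/- against WT ran from -0.25 (Col1a1) to 1.51 (Tgfb1) on NCD and from -0.24 (Acta2) to 0.44 (Dcn) on HFD. The large Tgfb1 value rested on WT-NCD replicate 3 and was 0.08 (95% interval -1.34 to 1.496) without it. The 95% interval for Dcn on HFD ran from -0.46 to 1.33, and that for Lrat from -0.81 to 1.35, so that a level more than 2-fold higher in Casp11-/- mice lay within the error for either gene. The interaction of diet and genotype ran from -1.28 (Tgfb1) to 0.50 (Col1a1) in 12 libraries, with the smallest unadjusted p at 0.31 (Col1a1, limma). Without WT-NCD replicate 3 it ran from -0.66 (Acta2) to 0.65 (Reln), with the smallest unadjusted p at 0.30 (Reln, limma). Leaving out 1 library at a time, the interaction value of Tgfb1 ran from -2.12 to 0.15, so its sign was not stable.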

How the data were processed

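RNA of 12 mice was made into random-primed stranded libraries and sequenced as single-end reads of 75 bases. According to the labels, reads were aligned with STAR to mm10 (GRCm38.p6). The authors computed the deposited values as TPM, treated here as a score because they are held at a floor of 1.01 and their totals (1000350 to 1022490) exceed that of TPM. A gene had to exceed the floor in 3 or more libraries. The test was limma 3.58.1 (R 4.3.3), fitted to log2(TPM + 1) with all 12 libraries sharing 1 spread, a trend on the mean and Benjamini-Hochberg adjustment, two-sided, at 0.05. Fold changes on this scale understate those of low genes. The fit was tested on simulated data. The alternatives left out libraries, rescaled protein-coding genes, removed the top 1% of genes, used another pseudocount, no filter, a replicate block or the spread of the compared groups alone. Correlations used Python 3.11.15. Coordinates came from GENCODE vM21. A comparison of sequences is not reported here. The members, gene lists and alternatives were chosen with earlier results of these data known. The text names the 10 members, up to 8 genes of each list with a mean of at least 5 TPM or an unadjusted p under 0.05, ordered by p, and the 3 genes most like a member. Other genes named, among them Des, Cnn1, Myh11, Pdgfb, Mb, Tyrp1, Fn1, Plaur, Mmp9 and Mmp14, were chosen after their values were seen. Replicates are separate mice.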

Additional observations from a re-analysis of the deposited data

How the results depend on the processing

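With all 12 libraries 0 of the 8 tested genes passed in any of the 6 comparisons (limma), with 1 at an unadjusted p under 0.05 in the averaged diet comparison. Over 24 diet values of these genes, 449 of 488 recomputed values kept their direction and side of the threshold, 9 moved past it and 30 changed sign. With the 1% most abundant genes removed (Tgfb1 among them), Col1a1 and Col1a2 were 0.61 and 0.73 in WT mice, 10 genes were called for the averaged diet and 0 for diet in WT mice. With protein-coding genes rescaled, Col1a2 and Tgfb1 were 0.007 and 0.29 in WT mice, 1 member (Dcn) was called for the averaged diet, and 455, 6 and 12 genes were called for the averaged diet, for Casp11-/- and for WT. The same without WT-NCD replicate 3 gave 1694, 439 and 100 genes, 2 members averaged and 1 in Casp11-/- mice, with Col1a1 and Col1a2 at 0.45 and 0.58 in WT mice. A pseudocount of 0.1 called 39 genes in WT, and the spread of the compared groups alone called 0 in WT, 300 in Casp11-/- mice and 15 for genotype on HFD.

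Leaving out 1 library at a time, the genes called ran from 1 to 3289 for the averaged diet (1 without Casp11-/- HFD replicate 1 or 3, 3289 without WT-NCD replicate 3), from 0 to 391 in WT, from 0 to 198 in Casp11-/- mice, from 0 to 10 for genotype on NCD and from 0 to 1 for the interaction, and the members called from 0 to 2. Averaged values ran from -0.0835 to 0.20 for Col1a1, from -0.0895 to 0.26 for Col1a2 and from -0.11 to 0.22 for Col3a1. In WT mice they ran from -0.29 to 0.0577 for Col1a1, from -0.24 to 0.17 for Col1a2, from -0.12 to 0.32 for Col3a1 and from -1.47 to 0.80 for Tgfb1. In Casp11-/- mice they ran from -0.0062 to 0.51 for Col1a1, from -0.0818 to 0.56 for Col1a2, from -0.32 to 0.34 for Col3a1 and from -0.41 to 1.42 for Acta2, each lowest without Casp11-/- HFD replicate 1.

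A pair of alternatives was added after the data were seen. Without WT-NCD replicate 3 and Casp11-/- HFD replicate 1, 1003, 397, 85, 13 and 1 genes were called (averaged, WT and Casp11-/- diet, genotype on NCD, interaction), Col3a1 was -0.0306 averaged, Col1a1 and Col1a2 were 0.0577 and 0.17 in WT, and Col1a1, Col1a2, Col3a1 and Acta2 were -0.0062, -0.0818, -0.32 and -0.41 in Casp11-/- mice. Without WT-NCD replicate 3 and the 1% most abundant genes, 1915, 303, 322 and 9 genes were called (averaged, WT and Casp11-/- diet, genotype on NCD), 2 members averaged and 1 in Casp11-/- mice, with Col1a1 and Col1a2 at 0.41 and 0.54 in WT. The cause was not tested.

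Same-numbered libraries of different groups correlated at -0.64 to 0.47 in their deviations from the group means, over 0.1 in 7 of 18 pairs. The WT-NCD mean includes replicate 3, so these values do not settle whether the numbers pair the mice. The main fit treats the mice as unpaired. A replicate block called 16 genes for the averaged diet, 0 for diet in WT mice and 0 members. No read counts are given, so the depth of a library and the counting error of a value are unknown.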

Other observations

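Of the contractile genes not named above, 3 had their highest value of the 12 libraries in WT-NCD replicate 3. That library had 39677 of 40840 genes above the floor, while 47.6% of all genes were at the floor in the other 11. The share of all genes with their highest value there is therefore large, and it was not counted. Actg2, an enteric smooth muscle actin, read 10.1 TPM there, 3.14 TPM in Casp11-/- HFD replicate 1 and 1.01 TPM in the other 10 libraries. Tagln, transgelin, read 8.39 TPM there and 1.01 to 5.09 TPM in the other 11. Lmod1, leiomodin, read 3.38 TPM there, 1.15 TPM in Casp11-/- HFD replicate 1 and 1.01 TPM in the other 10.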
